A study of Mus musculus with 10 samples.

Results

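From a table of 24500 mouse genes, 5 GATA transcription factor genes were taken by symbol, Gata2, Gata3, Gata4, Gata5 and Gata6. All 5 were listed in every one of the 10 ChIP-seq libraries. Gata1, the erythroid member of the family, is not among them and is described below with the partner genes. The terms GATA genes and GATA promoters below mean these 5 only. The libraries came from E14 mouse embryonic stem (ES) cells of strain 12910la, kept undifferentiated in medium with leukemia inhibitory factor. Control cells carried the unedited Ezh2 gene and are labelled as wild type. In ex14D cells, labelled as Ezh2 knockouts of exon 14, CRISPR-Cas9 had left small insertions or deletions in that exon, which leaves the EZH2 isoform without exon 14 as the functional one. Each genotype had 1 input library, 2 libraries with an antibody against trimethylated lysine 27 of histone H3 (H3K27me3) and 2 with an antibody against EZH2. The labels do not say whether the 2 libraries of a genotype came from separate cultures or clones, so p-values measure only the spread between these libraries, which may be technical. For both antibodies, the deposited data of ex14D replicates 1 and 2 carry different designations whose meaning is not stated, so technical spread and any difference between lines or clones cannot be told apart there. Read counts for H3K27me3 and input lay in windows of 1000 bp around start sites, and those for EZH2 followed the length of the gene (Spearman rho 0.886 to 0.923 over 13883 genes).

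GATA factors are zinc finger proteins that bind the DNA word GATA and direct the choice of cell lineage. Gata2 acts in blood stem and progenitor cells, Gata3 in T cells, trophoblast and sensory organs, and Gata4, Gata5 and Gata6 in heart, gut and extraembryonic endoderm. EZH2 is the methyltransferase of Polycomb repressive complex 2 (PRC2), whose mark H3K27me3 covers the promoters of many such lineage genes in ES cells, most of them rich in the dinucleotide CpG. Promoters of genes active in ES cells usually lack the mark. At 7 of 8 such promoters (Pou5f1, Nanog, Sox2, Zfp42, Esrrb, Tdgf1 and Dppa5a) H3K27me3 was below 2-fold over input in all 4 libraries, while that of Klf4 reached a log2 ratio of 1.81 and 1.27 in the control libraries. ChIP-seq measures no transcripts, so the labelled cell type could not be checked by expression.

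The promoter sequences below show what 3 of the 5 marked GATA genes share in base composition, a property that did not enter their choice. They are the 250 bases before each annotated start site in RefSeq (GRCm38.p6), written 5′ to 3′ on the strand of the gene, with every CpG in capitals. Sequences are given for 3 of the 5 genes, and those of Gata4 and Gata6 were not examined. Gata2 has 2 annotated start sites on the plus strand of chromosome 6, whose upstream sequences lie at chr6:88193641-88193890 and chr6:88198414-88198663. Gata3 and Gata5 both lie on the minus strand of chromosome 2, with upstream sequences at chr2:9878601-9878850 and chr2:180334680-180334929.
Gata2, upstream start site: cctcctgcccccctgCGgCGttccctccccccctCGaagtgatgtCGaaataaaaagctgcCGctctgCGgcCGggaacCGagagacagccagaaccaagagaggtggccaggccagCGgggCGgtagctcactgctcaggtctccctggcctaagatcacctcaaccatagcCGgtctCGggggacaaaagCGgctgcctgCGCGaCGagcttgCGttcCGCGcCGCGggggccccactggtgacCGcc
Gata2, downstream start site: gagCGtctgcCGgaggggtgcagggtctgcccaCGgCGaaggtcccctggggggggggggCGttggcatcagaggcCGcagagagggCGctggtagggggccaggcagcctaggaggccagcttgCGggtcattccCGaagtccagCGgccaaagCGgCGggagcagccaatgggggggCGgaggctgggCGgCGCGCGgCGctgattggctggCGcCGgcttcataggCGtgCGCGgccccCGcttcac
Gata3: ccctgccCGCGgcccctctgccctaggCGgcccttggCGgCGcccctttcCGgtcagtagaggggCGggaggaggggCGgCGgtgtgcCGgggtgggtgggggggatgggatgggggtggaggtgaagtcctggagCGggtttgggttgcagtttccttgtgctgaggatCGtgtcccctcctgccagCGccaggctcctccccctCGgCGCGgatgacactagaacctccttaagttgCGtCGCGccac
Gata5: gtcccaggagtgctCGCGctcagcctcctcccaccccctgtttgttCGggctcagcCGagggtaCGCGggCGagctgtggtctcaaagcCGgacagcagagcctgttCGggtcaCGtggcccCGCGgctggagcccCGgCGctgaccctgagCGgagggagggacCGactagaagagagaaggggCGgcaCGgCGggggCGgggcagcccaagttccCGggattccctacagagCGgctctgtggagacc

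The 4 sequences held 22, 24, 19 and 22 CpG in the order printed, against a median of 6 over the 32841 promoters of the table. Their GC content was 67.2%, 74.0%, 70.0% and 70.0%, against a median of 52.4%. The ratio of observed to expected CpG was 0.785, 0.741, 0.633 and 0.724, against a median of 0.374. All 4 were thus richer in CpG than the middle of the table. The Gata2 sequence of the downstream start site held more CpG than 88.0% of all promoters, and the Gata3 sequence, the lowest of the 4, held more than 80.3%. None of the 4 sequences held the word AGATAA, the word TGATAA, the word AGATAG or the word TGATAG, which GATA factors are known to bind, on either strand. Of all promoters, 26.5% held at least 1 of them in the same 250 bases. A missing word says only that these letters are not in this window.

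H3K27me3 stood well above input at the promoters of Gata2, Gata3, Gata4 and Gata5 in all 4 libraries. Values are CPM, read counts scaled to 1 total over the gene rows of each library, which are levels and comparable between genes because every window has the same length. Gata2 (chromosome 6, 88193891 to 88207032) had 587 and 505 CPM in the control libraries and 817 and 684 CPM in the ex14D libraries, with 61.1 and 69.6 CPM in the control and ex14D inputs. Gata3 (chromosome 2, 9857078 to 9878600) had 331 and 355 CPM in control and 551 and 550 CPM in ex14D, against inputs of 51.3 and 48.0 CPM. The 2 ex14D libraries gave nearly the same level at Gata3, and both lay above both control libraries. Gata4 (chromosome 14, 63198914 to 63245271) had 326 and 443 CPM in control and 593 and 446 CPM in ex14D, against inputs of 44.0 and 48.0 CPM. Gata5 (chromosome 2, 180325088 to 180334679) had 296 and 334 CPM in control and 380 and 377 CPM in ex14D, against inputs of 83.1 and 57.6 CPM. At Gata4 the second control library and the second ex14D library were almost level, whereas at Gata5 the genotypes lay apart by more than the libraries of a genotype did. Of all promoters in the table, between 97.0% and 99.5% had a lower level than these 4 genes in each H3K27me3 library.

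Gata6 (chromosome 18, 11052510 to 11085635), which is needed for primitive endoderm, was counted over a much smaller stretch than the others. Its window shared 943 bp with that of 1010001N08Rik, a noncoding RNA transcribed in the opposite direction from the same promoter, which left 57 bp of its own. Input reads in windows that shared at least 900 bp with another window had a median of 1 in both inputs, whereas the 20826 windows that shared none had medians of 19 (control) and 20 (ex14D). Gata6 had 18 and 26 H3K27me3 reads in control (30.3 and 27.7 CPM) and 86 and 63 reads in ex14D (59.3 and 50.5 CPM), with 0 and 1 reads in the inputs. Both ex14D libraries lay above both control libraries. Against a floor of 3 reads in the control input, the control libraries were at least 4.13-fold and 3.79-fold over input. The ex14D libraries stood 24.7-fold over input (95% interval 4.32 to 987) and 21.0-fold (3.64 to 844), intervals that cover counting error only. The level of Gata6 can therefore not be ranked against those of the other 4 genes.

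**Figure D1:**
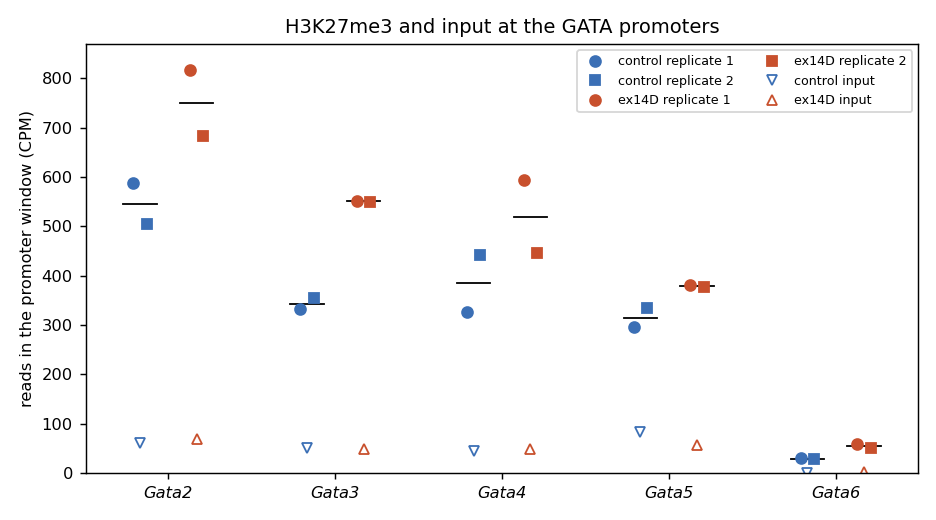
H3K27me3 and input reads in the promoter window of each GATA gene, in CPM on a linear axis. Filled points are single H3K27me3 libraries, bars are the means of 2 libraries, and open triangles are the inputs. At every gene both ex14D points lie above both control points, narrowly at Gata4 (446 against 443 CPM), and Gata6 sits far below the others.

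Among the 4 genes with a full window, Gata2 had the highest level in both genotypes, 546 ± 58.4 CPM in control and 751 ± 94.1 CPM in ex14D (SD, n = 2). In control, Gata4 (385 ± 82.3 CPM), Gata3 (343 ± 16.8 CPM) and Gata5 (315 ± 26.7 CPM) followed, and each of these overlapped its neighbour in the order. In ex14D, Gata3 (551 ± 0.146 CPM) and Gata4 (520 ± 104 CPM) overlapped, and Gata5 (379 ± 2.72 CPM) lay below both. The first control library put Gata3 above Gata4 and the second put Gata4 above Gata3. Set against the input of the same genotype, the level of Gata2 was 9.62-fold and 8.26-fold in control and 11.7-fold and 9.83-fold in ex14D. Gata5, which had the most input reads in control (34), was lowest of the 4, at 3.57-fold and 4.02-fold in control and 6.61-fold and 6.54-fold in ex14D. The inputs held only 18 to 34 reads at these genes, so the 95% exact binomial intervals are wide, for example 2.46 to 5.31 for Gata5 in the first control library and 4.39 to 10.4 in the first ex14D library. On the log2 scale with 1 CPM added, all 4 genes were at least 2-fold over their input in both control libraries, as was Gata6 by its bound, against 11.3% of all promoters in the table.

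All 5 GATA promoters had a higher share of the H3K27me3 reads in ex14D than in control. In all 5 of them both ex14D libraries exceeded both control libraries in CPM, against 9.1% of the promoters tested. With libraries scaled by TMM, which centres the bulk of promoters on no change, all 5 were called higher in ex14D and none lower by edgeR's quasi-likelihood test (adjusted p under 0.05, over 14883 promoters). Of all promoters tested, 5.85% were called higher and 3.19% lower. The log2 fold change was 1.37 (SE 0.33, adjusted p = 0.0076) at Gata6, 1.13 (SE 0.20, adjusted p = 0.00027) at Gata3 and 0.91 (SE 0.20, adjusted p = 0.0030) at Gata2. It was 0.88 (SE 0.21, adjusted p = 0.0063) at Gata4 and 0.71 (SE 0.20, adjusted p = 0.020) at Gata5. Differences between the 5 genes were not tested.

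The size of the rise, and for most members the call, depended on the scaling. Library size alone shifted the median over all promoters to -0.47 (-0.02 under TMM), and only Gata3 kept its call in edgeR's quasi-likelihood test (0.68, adjusted p = 0.014), against 2.67% of all promoters called higher. The values of Gata2, Gata4, Gata5 and Gata6 were then 0.46, 0.43, 0.26 and 0.93. With all counted reads as library size, Gata2, Gata3 and Gata4 were called, 3 of 5, against 4.23% of all promoters. Relative to the median of all promoters, the 5 values ranged from 0.74 at Gata5 to 1.40 at Gata6 under TMM and from 0.73 to 1.40 with library size alone. A scaling shifts all promoters by about the same amount, so these ranges had to be close. They do not show that the rise is free of the scaling. The sign was positive at all 5 genes under every scaling and test and without each library in turn. Without the second control library or without the first ex14D library, only Gata3 was called, whereas 3 genes were called without the second ex14D library and 4 without the first control library. No spike-in is named for these libraries, so each is read as shares of its own reads, and a change in the amount of the mark per cell would not be seen. By Western blot the authors report less H3K27me3 in ex14D cells, and by ChIP-PCR less of it at the developmental genes they tested. A higher share here is therefore not read as more of the mark per cell.

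**Figure D2:**
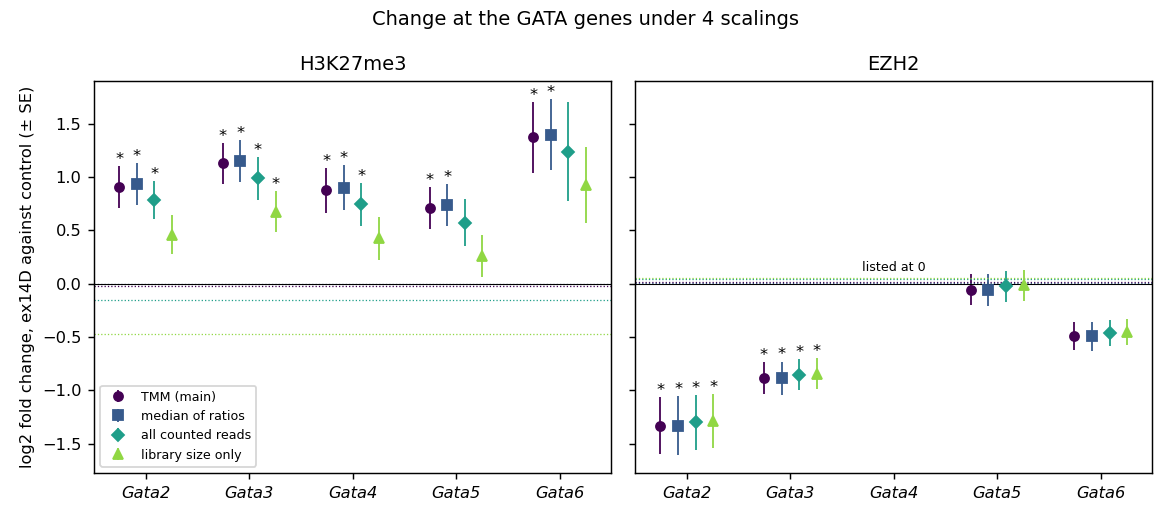
Log2 fold change of ex14D against control at each GATA gene, with its standard error, for H3K27me3 (left) and EZH2 (right) under 4 scalings. Asterisks mark adjusted p under 0.05, and dotted lines give the median of all features under each scaling. H3K27me3 values lie above 0 at all 5 genes (0.26 to 1.40), and EZH2 values lie below 0 at Gata2, Gata3 and Gata6 and near 0 at Gata5.

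Calls of a rise were more frequent at promoters that carried the mark, as the GATA promoters did. Of 2658 tested promoters with a control level of 2-fold over input or more in both libraries, 28.6% were called higher, and their median was 0.33 on the log2 scale. Of the 401 with 8-fold or more, to which Gata2 belongs, 70.6% were called higher, and their median was 1.00. Gata6 also passes 8-fold with 1 CPM added (31.3-fold and 28.7-fold), but its control input held 0 reads and its bounds of 4.13-fold and 3.79-fold do not reach it. Other windows with few input reads may be in this class in the same way. The share of counted reads that fell in promoter windows moved with genotype as well, from 5.65% and 5.98% in the control libraries to 7.58% and 6.86% in ex14D. The part of that share in the values of the GATA genes was not tested.

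**Figure D3:**
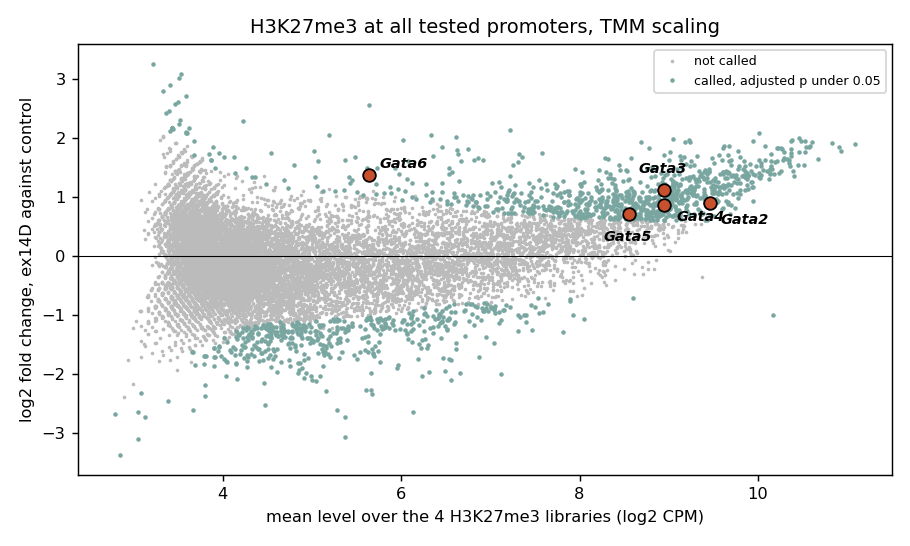
Log2 fold change of H3K27me3 in ex14D against control for all 14883 tested promoters (vertical axis) by their mean level in log2 CPM (horizontal axis), with TMM scaling. Promoters past the threshold are coloured and the 5 GATA genes are ringed. Gata2, Gata3, Gata4 and Gata5 sit among the highly marked promoters, most of which lie above 0, and Gata6 sits further left at 1.37.

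Each of the 5 GATA genes also lay in a broad H3K27me3 peak in all 4 libraries. The authors called these peaks with MACS2 library by library, and a peak counted when it overlapped the promoter window by at least 1 bp. A peak covered the promoter in all 4 libraries at 5 of 5 GATA genes, against 15.1% of the 24356 promoters with a known position. The peak at Gata3 was the widest, at 30.03 and 35.1 kb in control and 31.2 and 29.7 kb in ex14D, and that at Gata5 the narrowest, at 8.95 and 6.51 kb in control and 6.28 and 5.98 kb in ex14D. At Gata2 it spanned the whole gene in 3 libraries, with 20.01 and 20.5 kb in control and 21.5 kb in the first ex14D library, and it was 18.4 kb wide in the second. The fold enrichment that MACS2 gave for a peak was 9.61 and 6.75 in control and 13.2 and 17.2 in ex14D at Gata2. At Gata3 it was 3.34 and 2.50 in control and 8.04 and 11.6 in ex14D. Both genes had higher values in both ex14D libraries than in both control libraries, as had Gata5 (2.22 and 2.59 against 3.12 and 9.93) and Gata6 (2.73 and 2.67 against 4.13 and 4.36). Gata4 differed, with 5.61 and 2.44 in control and 3.40 and 4.05 in ex14D, which overlap. Over all peaks the median fold enrichment moved the same way, from 3.30 and 3.04 in control to 4.77 and 5.50 in ex14D, and its part in these values was not tested.

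The share of EZH2 reads fell in ex14D at Gata2 and Gata3, and at Gata5 the genotypes overlapped. As for H3K27me3, no spike-in is named, so a change in the amount of EZH2 per cell would not be seen. By Western blot the authors report less EZH2 protein in ex14D cells, and by ChIP-seq less EZH2 at its target genes. The values below are therefore not read as the size of that loss. Gata2 had 127 and 131 CPM in the control libraries and 71.5 and 35.0 CPM in the ex14D libraries. Gata3 had 178 and 172 CPM in control and 116 and 79.4 CPM in ex14D. Gata6 had 248 and 227 CPM in control and 201 and 148 CPM in ex14D. At these 3 genes both ex14D libraries lay below both control libraries, which was so for 18.0% of the genes tested, and the second ex14D library was the lower of the 2. Gata5 had only 9.81 and 11.5 CPM in control and 11.9 and 9.50 CPM in ex14D, so the libraries of both genotypes interleaved. Most bases of Gata5 that belong to no other gene lay outside the EZH2 domain called by the authors (described below). These counts therefore say little about its promoter. Because these counts grow with gene length, genes are compared per kb of bases that belong to no other gene. Per kb, Gata2 had 9.66 and 10.01 CPM per kb in control, Gata3 8.26 and 7.97, Gata6 7.50 and 6.88, and Gata5 1.26 and 1.48. In ex14D the same densities were 5.44 and 2.66 at Gata2, 5.37 and 3.69 at Gata3, 6.06 and 4.47 at Gata6, and 1.53 and 1.22 at Gata5. In both control libraries an EZH2 domain covered 92.1%, 35.3%, 22.5% and 11.0% of these bases at Gata2, Gata3, Gata6 and Gata5. The densities average over covered and uncovered parts of a gene, so they do not rank EZH2 at the promoters.

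**Figure D4:**
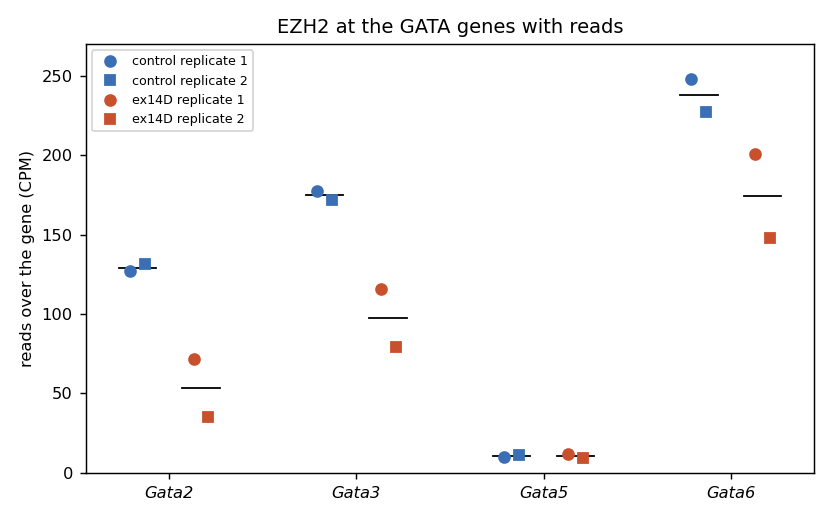
EZH2 reads over the 4 GATA genes with counts, in CPM on a linear axis. Points are single libraries and bars the means of 2 libraries. At Gata2, Gata3 and Gata6 both ex14D points lie below both control points, and at Gata5 all 4 points lie between 9.50 and 11.9 CPM.

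By edgeR's quasi-likelihood test over 13401 genes, 2 of the 4 GATA genes tested were called lower in ex14D and none higher. Of all genes tested, 7.88% were called lower and 0.0522% higher. The log2 fold change was -1.33 at Gata2 (SE 0.27, adjusted p = 0.023) and -0.88 at Gata3 (SE 0.15, adjusted p = 0.013). At Gata6 it was -0.49 (SE 0.13, adjusted p = 0.066), which missed the threshold, and at Gata5 -0.06 (SE 0.15, adjusted p = 0.91). The value at Gata5, a gene mostly outside its EZH2 domain, is not read as unchanged EZH2 at its promoter. With the replicate number as a block, Gata6 passed (-0.51, adjusted p = 0.032), whereas by DESeq2 the call of Gata2 was lost (-1.32, adjusted p = 0.12). The change at Gata2 was -1.95 without the first ex14D library and -0.89 without the second. A fit without 1 library takes its spread from the other genotype alone. Calls made without an ex14D library therefore leave out the difference between the ex14D libraries. The value at Gata5 turned positive without the second control library (0.07) and without the second ex14D library (0.11). Leaving out the first or the second control library left 0 GATA genes called by edgeR, with adjusted p of 0.29 and 0.33 at Gata2 and 0.24 in both fits at Gata3, whose unadjusted p were 0.014 and 0.011. The 2 ex14D EZH2 libraries differed more from each other than the 2 control EZH2 libraries did. The chi-square of their counts over genes was 3.95 for each degree of freedom, against 1.48 for the control pair.

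Gata4 was listed at 0 in all 4 EZH2 libraries and was not tested. It lies in a stretch of 372 neighbouring genes on chromosome 14, 68.7 Mb long, that were all listed at 0 in these libraries. In the whole table, 10575 of 24500 genes (43.2%) were listed at 0 in all 4, and 1675 of them had an EZH2 domain over the promoter in both control libraries. A 0 in these counts is therefore no measure of EZH2 at Gata4, whose promoter lay in an EZH2 domain in every library.

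EZH2 domains, called by the authors with hiddenDomains library by library, covered the promoter of 5 of 5 GATA genes in all 4 libraries, against 10.4% of all promoters. At Gata2 the domain was 17 and 19 kb wide in control and 16 kb in both ex14D libraries. At Gata3 the region was covered over 27 and 28 kb in control and over 21 and 20 kb in ex14D, where the main domain reached to -12.4 kb from the start site instead of -19.4 kb. The first ex14D library kept a further piece of 2 kb upstream of it. At Gata4 the covered length was 25 and 34 kb in control and 20 and 15 kb in ex14D. An upstream domain of Gata4, from -25.7 to -19.7 kb in the first control library and inside the wide domain of the second, was 3 kb wide in the first ex14D library and was not called in the second. The upstream H3K27me3 peak of Gata4 was called in all 4 libraries, including the second ex14D library with 5.06 kb. The Gata6 domain was 14 kb in both control libraries and 14 and 12 kb in ex14D, and that of Gata5 was 4 kb in both control libraries and 3 and 4 kb in ex14D. Gata3 and Gata4 thus had a shorter covered length in both ex14D libraries than in both control libraries, as had Gata2 by 1 to 3 kb. Domain edges at these genes fall on steps of 1 kb, and the control domains of Gata2 were themselves 17 and 19 kb wide. The difference at Gata2 is therefore close to the resolution of the calls. The total covered by EZH2 domains in the genome was 21.6 and 35.4 Mb in control and 15.1 and 19.7 Mb in ex14D, and its part in these widths was not tested.

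**Figure D5:**
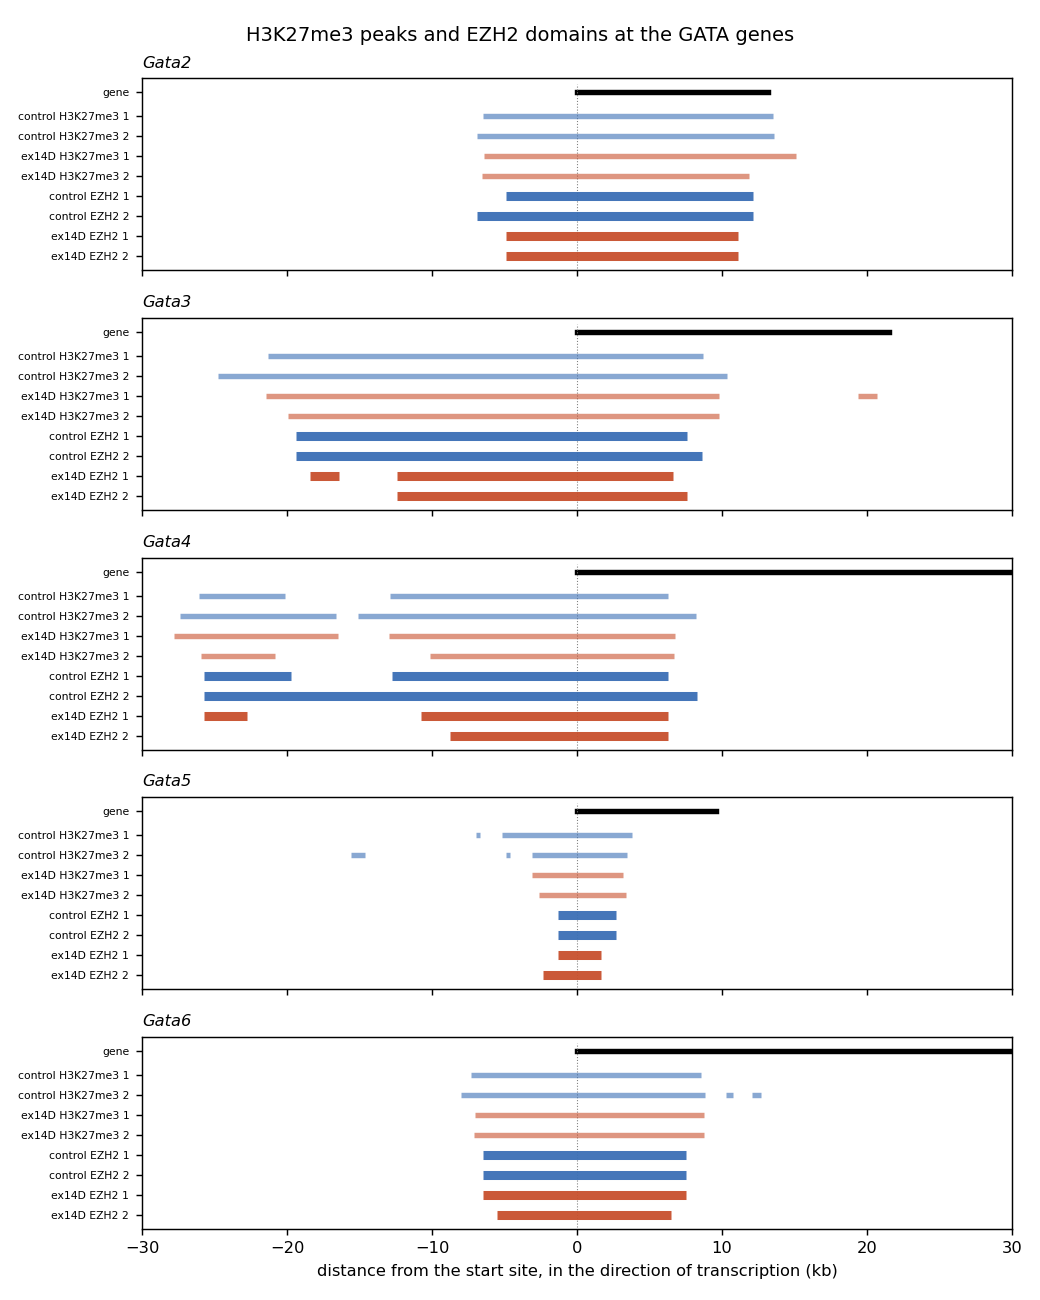
H3K27me3 peaks (thin bars) and EZH2 domains (thick bars) within 30 kb of the start site of each GATA gene, by library, with distance in kb in the direction of transcription and the gene as a black bar. Control libraries are blue and ex14D libraries red. The main EZH2 domain of Gata3 reaches to -12.4 kb in ex14D and to -19.4 kb in control, while its H3K27me3 peak starts between -24.8 and -19.9 kb in all 4 libraries.

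The size of the EZH2 change followed how much of a gene the domain covered, in an order seen after the values were known. Of the bases of Gata2 that belong to no other gene, 92.1% lay in a domain in both control libraries, against 35.3% at Gata3, 22.5% at Gata6 and 11.0% at Gata5. The log2 fold changes in the same order were -1.33, -0.88, -0.49 and -0.06. At Gata5 the first 1823 bp are shared with the antisense gene Gata5os, and these hold most of the part of its domain that lies in the gene. Gata5os itself had -0.56 with 21.8% in a domain, and 1010001N08Rik, the divergent partner of Gata6, had -0.97 with 62.2%. Over the whole table, genes with a domain over the promoter in both control libraries had a median of -0.11 where under 20% of the gene was covered (1801 genes, 24.4% called lower). The median was -0.77 at 20% to 40% (172 genes, 76.2% called lower) and -1.04 at 80% to 100% (280 genes, 85.0% called lower). The part of coverage in the differences between GATA genes was not tested.

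Genes known to act with GATA factors were described in the same fits, where a rise or fall again means a higher or lower share of reads. Of a list of 34 genes, written with earlier results of these data known, 32 were tested for H3K27me3, and 12 rose (37.5%) and 1 fell (3.12%) in ex14D, against 5.85% and 3.19% of all promoters. Their median was 0.40 on the log2 scale, against -0.02 over all promoters. With library size alone 7 were called higher (21.9%) and 3 lower (9.38%), against 2.67% and 14.6% of all promoters, and the median was -0.06. The rises by edgeR's quasi-likelihood test included Foxa2 (1.73, adjusted p = 4.5e-06), a pioneer factor of endoderm, Cdx2 (1.38, adjusted p = 5.0e-05), a factor of trophoblast, and Tal1 (1.27, adjusted p = 8.6e-05), which forms a complex with GATA factors in blood. Hand2 (1.28, adjusted p = 0.0037) and Nkx2-5 (1.12, adjusted p = 0.00034), factors of the developing heart that act with Gata4, rose as well, and Hand2 lost its call with library size alone. By role, 5 of 8 heart partners, 4 of 6 endoderm partners, 2 of 4 trophoblast partners and 1 of 8 blood partners were called higher, against 5.85% of all promoters. Promoters that already carried the mark in control were called higher more often. The share was 28.6% in the 2-fold class described above and 70.6% in the 8-fold class. The part of the control level in the partner calls, and in the differences between roles, was not tested. Of the other GATA-type zinc finger genes 0 of the 4 tested were called in either direction by edgeR, as were 0 of the 2 FOG cofactors, and none passed an unadjusted p under 0.05. Klf1, the erythroid factor, was the gene called lower (-1.52, adjusted p = 0.0062), with 62.3 and 58.7 CPM in control and 19.99 and 10.4 CPM in ex14D, near or below its inputs of 44.0 and 55.2 CPM. Of the FOG cofactors that bind GATA proteins, Zfpm1 (0.39, adjusted p = 0.33) and Zfpm2 (0.29, adjusted p = 0.50) were not called.

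For EZH2, 17 of the 34 partner genes were listed above 0 and tested, and by edgeR 11 fell (64.7%) and 0 rose (1 at an unadjusted p under 0.05), against 7.88% and 0.0522% of all genes tested. The median was -0.59 on the log2 scale, against 0.02 over all genes. Of genes with a domain over the promoter in both control libraries, 24.4% were called lower where under 20% of the gene was covered. Where 80% to 100% was covered, 85.0% were called lower. The part of coverage in the partner values was not tested. With DESeq2 10 were called lower and 0 higher. The falls by edgeR's quasi-likelihood test included the heart factors Tbx5 (-1.16, adjusted p = 0.0036) and Nkx2-5 (-0.99, adjusted p = 0.024), the trophoblast factor Tfap2c (-1.11, adjusted p = 0.0034), the endoderm factor Sox17 (-1.08, adjusted p = 0.014) and the blood factor Lmo2 (-1.04, adjusted p = 0.014). Zfpm1 fell as well (-0.59, adjusted p = 0.0064), and Zfpm2 was listed at 0. Leaving out the first or the second control library left 0 partner genes and 0 of all genes called by edgeR, although 1372 and 1300 of all genes were lower at an unadjusted p under 0.05. Gata1, the erythroid member of the family on the X chromosome, carried no excess of H3K27me3, with 15.1 and 14.9 CPM in control and 14.5 and 7.21 CPM in ex14D against inputs of 24.4 and 24.0 CPM. Its log2 fold change was 0.01 (adjusted p = 0.996 by edgeR's quasi-likelihood test), and it was listed at 0 for EZH2. Many genes with an EZH2 domain over the promoter were listed at 0, so the 0 is no measure of EZH2 at Gata1 or Zfpm2.

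The promoters most like each GATA gene were found by the Euclidean distance of log2(CPM + 1) over the 4 H3K27me3 and 2 input libraries. For Gata2 these were Wnt2b (distance 0.31), Sphk1 (0.32) and Gm13889 (0.37), and for Gata3 they were Sox7 (0.26), Gcnt4 (0.30) and Mir10b (0.31). For Gata4 they were Ebf4 (0.38), Adgrb2 (0.43) and Gcnt4 (0.47), and for Gata5 they were Chd3os (0.25), Rassf5 (0.26) and Vwa2 (0.32). For Gata6, counted over 57 bp of its own, they were Irx2 (0.72), its divergent partner 1010001N08Rik (1.03) and Mir129b (1.36), which like Gata6 had 0 reads in the control input. The distances of Gata6 therefore carry its shared window and are not read as likeness. Among the GATA genes, Gata3 and Gata4 were nearest to each other at 0.50. With 1 minus the Pearson correlation as the measure, 0 of the 3 nearest genes of any member were kept.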

How the data were processed

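The authors aligned reads with Bowtie (the submitters' processing notes also list Bowtie2, Trimmomatic, MACS2, ChIPseeker and HTSeq) to mm10 and counted them with htseq-count, per the methods in windows of 1 kb around the 5′ most start site. The deposited counts are whole reads without normalization. Library totals on genes were 409371 and 416778 for the inputs, 594289 to 1450937 for H3K27me3 and 13628137 to 18403892 for EZH2. Reads on no gene (33.8% to 98.0% of counted reads) and ambiguous reads (0.141% to 21.9%) entered library sizes only where the text says so. The deposited ratio (fold enrichment) and −log10 q of MACS2 peaks are the authors' values. The deposited H3K27me3 domains were not used, because in each library they ran past the GRCm38 ends of 8 chromosomes.

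Each antibody was fitted alone with edgeR 4.0.16 in R 4.3.3 with TMM, filterByExpr and the quasi-likelihood F test, and p-values were adjusted over all features by Benjamini-Hochberg with a threshold of 0.05. Standard errors were approximated from the log2 fold change and the F statistic. DESeq2 1.42.0 was an alternative. The fits were also run on simulated counts, with the same spread assumed for every feature and both genotypes. The wider spread between the ex14D EZH2 libraries was not simulated, so these runs say nothing about it. Start sites of 24356 of 24500 genes came from RefSeq curated transcripts on GRCm38, whose version may differ from that of the authors. The counting window of Gata2, with 2 annotated start sites, was taken to be the upstream one. Enrichment over input used log2((CPM + 1)/(input CPM + 1)). Named genes were the 5 members, Gata1, Zfpm1, Zfpm2, up to 5 partner genes per direction and antibody with the largest called change, and the 3 nearest genes of each member. The partner list holds other GATA-type zinc finger genes, FOG cofactors and blood, heart, endoderm and trophoblast partners. Members and lists were chosen with earlier results of these data known.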

Additional observations from a re-analysis of the deposited data

How the results depend on the processing

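Of 266 alternative values for 42 results, 184 kept their direction and their side of the threshold or stayed close to the main value. With library size alone, the H3K27me3 counts over all promoters became 2176 lower and 398 higher (475 and 871 with TMM), those over the partner list 3 and 7, and 1 GATA gene was called higher. The H3K27me3 log2 fold changes of Gata2, Gata4, Gata5 and Gata6 then were 0.46, 0.43, 0.26 and 0.93, past no threshold. With all counted reads as library size, 3 GATA genes were called and those of Gata5 (0.57) and Gata6 (1.24) were not. Promoters called lower numbered 307 with centring on promoters near input and 264 with DESeq2. EZH2 genes called higher numbered 47 with library size alone, 33 with all counted reads, 2 with DESeq2 size factors in edgeR, 3 with the replicate block and 0 with DESeq2 (7 at an unadjusted p under 0.05). By DESeq2, 1 GATA gene was called lower for EZH2 and Gata2 was at -1.32.

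The replicate numbers did not pair the libraries: deviations of same-numbered libraries correlated at -0.10 for H3K27me3 and -0.03 for EZH2. With the replicate block, H3K27me3 calls numbered 406 lower and 755 higher with all 5 GATA genes among the higher, EZH2 calls numbered 852 lower, and Gata6 (-0.51) passed the threshold for EZH2.

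Leaving out 1 library at a time, in fits where the lone library was assumed to vary like the other genotype, gave for H3K27me3 between 73 and 610 promoters lower, 255 and 797 higher, 0 and 2 partner genes lower, 5 and 12 higher, and 1 and 4 GATA genes higher. The log2 fold changes ranged from 0.75 to 1.04 at Gata2, 1.05 to 1.14 at Gata3, 0.65 to 1.08 at Gata4, 0.60 to 0.75 at Gata5 and 1.26 to 1.49 at Gata6. For EZH2 it gave 0 to 1561 genes lower, 0 to 81 higher, 0 to 11 partner genes lower and 0 to 3 GATA genes lower. EZH2 values ranged from -1.95 to -0.89 at Gata2, -1.20 to -0.63 at Gata3, -0.24 to 0.11 at Gata5 and -0.75 to -0.28 at Gata6. The sign at Gata5 turned without the second control library (0.07) and without the second ex14D library (0.11). Both edgeR fits with 0 EZH2 calls left out a control library and had 1372 and 1300 genes lower, 186 and 198 higher, at an unadjusted p under 0.05.

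Mean log2 enrichment over input with all counted reads was 3.92 in control and 4.56 in ex14D at Gata2, 3.41 and 4.41 at Gata3, 3.65 and 4.31 at Gata4, and 2.90 and 3.75 at Gata5. With a pseudocount of 0.5 it was 3.51 at Gata3 and 2.71 at Gata5 in ex14D. Against the mean of both inputs it was 3.45 at Gata3 in ex14D, and 2.15 and 2.41 at Gata5 in control and ex14D. The causes were not tested. Inputs of 18 to 34 reads per promoter limit every ratio to input. A peak covered all 5 promoters in each library except with −log10 q of at least 3, when the first control library had 4.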
